A study of Nannochloropsis oceanica with 18 samples.

Results

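The plastid genome of Nannochloropsis oceanica, a unicellular marine alga that stores oil, carries genes for part of its own ribosome. All rows of the count table with a plastid prefix and a symbol starting in rpl (large subunit) or rps (small subunit) were taken, which gave 43 genes, 25 of the large and 18 of the small subunit, among 125 plastid genes and 10493 genes in all. Polyadenylated RNA was sequenced from strain IMET1 in 6 groups of 3 flask cultures, which crossed 3 genotypes with 2 light levels. The genotypes were the wild type (WT), a line labelled NO07G02030-ko (KO) and a line labelled NO07G02030-oe (OE). Cultures were kept for 8 days at about 50 (normal light, NL) or about 300 (high light, HL) µmol photons per square metre per second. All groups shared the IMET1 background, the medium and a temperature fixed by the protocol, and nothing states how many independent clones stand behind each line or whether the 3 replicates, called biological by the protocol, came from separate seed cultures, so p-values measure the spread between these samples only. The labels call the cell type Colonial, which no named marker in the files can check.

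Plastid ribosomes are of the bacterial type. Each has a large subunit, which forms peptide bonds, and a small subunit, which holds and decodes the mRNA, and each subunit is built of ribosomal RNA and many small proteins. Some of these proteins are encoded in the plastid and the others in the nucleus, and plastids of the red algal line, to which that of Nannochloropsis belongs, have kept more of the genes than plants have. They make the machinery that translates the photosystem cores, Rubisco and the other proteins the plastid encodes. Plastid transcripts mostly lack the stable poly(A) tails of nuclear mRNA, so a library of polyadenylated RNA holds few of them.

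Library totals were 14614662 to 18156737 counts, and the 43 genes together received 23 to 258 of them per library. Over the 18 libraries they received 1695 counts, 907 for the large and 788 for the small subunit. NO07G02030 itself did not follow the labels in transcript level. None of its contrasts was called (edgeR), with log2 fold changes against WT of -0.37 (KO, NL), 0.44 (KO, HL), -0.20 (OE, NL) and 0.41 (OE, HL), and directions below refer to the labels. HL_KO replicate 2, HL_WT replicate 1 and NL_KO replicate 1 stood apart from their groups, with chi-square values per gene of 83.3 to 184 against their group mates, where those mates gave 64.6, 6.51 and 42.1 against each other. Results that rest on these libraries are given with and without them. In NL_WT, replicates 1 and 3 gave 121.6 against each other, while replicate 2 gave 36.07 against replicate 1 and 46.25 against replicate 3.

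Most of the genes were close to the limit of detection. Of the 43, 12 reached 10 counts in at least 1 library, 6 of each subunit, and these took 78.9% of the counts. Among them were rpl21, rpl2, rpl27, rpl4, rpl13 and rpl5, and rps10, rps2, rps7, rps9 and rps19. Another 27 were detected with at most 9 counts in any library and totals of 1 to 37. The last 4, rpl29, rpl34, rpl35 and rpl36, had 0 counts in all libraries, where 3 counts, the limit that a count of 0 allows, correspond to 0.165 to 0.205 CPM (counts scaled to a common library total). All 4 encode proteins that are among the smallest of the bacterial ribosome, as do rpl31, rpl32 and rpl33, which had 1, 1 and 2 counts in all. The number of the 43 genes with at least 1 count was 13 to 26 per library. rpl21 was the 1 gene found in all 18 libraries, and it alone took 24.4% of the counts.

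TPM scales counts for gene length and so allows genes to be set side by side. It does not correct for how well each plastid transcript was captured in a library of polyadenylated RNA. rpl21 had a mean of 11.3 ± 14.6 TPM (SD over 18 libraries) and rps10 10.4 ± 9.02 TPM, which ranked them at positions 4 and 5 of the 125 plastid genes by mean TPM. They did not differ beyond their spread. The median was 3.99 TPM for rpl21, 8.13 for rps10 and 4.49 for rpl27, so the high mean of rpl21 rests on its highest libraries. Lower means were those of rpl27 at 4.48 ± 3.38 TPM, rps20 at 3.66 ± 4.59, rps7 at 3.17 ± 3.12, rps9 at 2.07 ± 3.67, rps2 at 1.98 ± 2.09 and rps19 at 1.97 ± 6.29, each within the spread of its neighbours in this order. TPM is coarse for the shortest genes, since a single count was worth 4.07 TPM for rpl32 and 3.13 for rpl33, against 0.175 for rpl2.

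**Figure D1:**
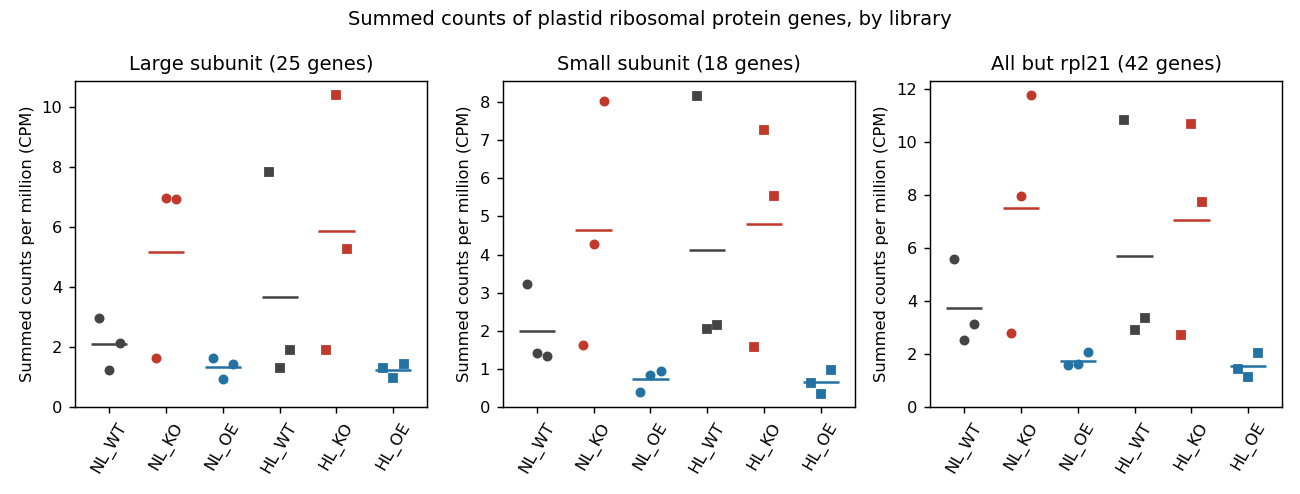
Summed counts of plastid ribosomal protein genes in CPM (vertical axis) for each of the 18 libraries in 6 groups; each point is a library (circles normal light, squares high light) and each line the group mean. In the small subunit panel the OE libraries lie at 0.347 to 0.970 CPM, under every other library.

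The OE-labelled libraries had the lowest summed level of plastid ribosomal protein transcripts. In counts, the 43 genes had 100, 43 and 57 in replicates 1, 2 and 3 of NL_WT, 54, 168 and 220 in NL_KO and 35, 32 and 43 in NL_OE. At high light they had 249, 54 and 66 in HL_WT, 55, 258 and 162 in HL_KO and 34, 23 and 42 in HL_OE. On the CPM scale the 6 OE libraries lay at 1.33 to 2.40 CPM and the other 12 at 2.66 to 17.7 CPM. The OE libraries thus did not overlap with the rest in CPM, but in counts NL_OE replicate 3 tied with NL_WT replicate 2 at 43. In these bulk libraries fewer cells that hold a transcript and less of it per cell cannot be told apart. Nor can either be told apart from a difference in how much plastid RNA each library of polyadenylated RNA captured. The libraries at 6.22 to 17.7 CPM, all of WT or KO, also had the lowest scaling factors in edgeR (TMM), 0.894 to 0.972. All other libraries lay at 4.06 CPM or less and had factors of 0.994 or more. What lies behind this was not tested. As sums over genes chosen with earlier results known, the summed levels are a description and carry no test.

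Group means were 4.13 ± 1.86 CPM in NL_WT, 9.84 ± 5.98 in NL_KO and 2.07 ± 0.292 in NL_OE (SD, n = 3). At high light they were 7.80 ± 7.11 CPM in HL_WT, 10.7 ± 7.08 in HL_KO and 1.89 ± 0.536 in HL_OE. The OE mean was thus lower than WT by 2.00-fold at normal light and by 4.13-fold at high light. The ratio at normal light was a log2 value of -0.998, and -1.23 to -0.58 with 1 library left out. That at high light was -2.05 with HL_WT replicate 1 and -0.97 without it. The KO and WT ranges overlapped at both light levels, as did the light levels within each strain. The mean of HL_WT stood above that of NL_WT by 1.89-fold, and this order turned without HL_WT replicate 1 (log2 ratio 0.92 with it and -0.16 without). Within HL_KO, the 3 libraries ranged from 3.49 to 17.7 CPM, and within NL_KO from 3.28 to 14.98 CPM. Without NL_KO replicate 1 the log2 ratio of KO to WT at normal light was 1.67 in place of 1.25.

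The small subunit carried more of the separation than the large. Its summed level was 0.409 to 0.936 CPM in NL_OE and 0.347 to 0.970 in HL_OE, while NL_WT lay at 1.35 to 3.24, NL_KO at 1.64 to 8.04, HL_WT at 2.04 to 8.16 and HL_KO at 1.59 to 7.25. For the large subunit the OE libraries reached 0.948 to 1.63 CPM and NL_WT started at 1.24, so the ranges overlapped. Small subunit genes made up 26.1% to 40.5% of the ribosomal protein counts in HL_OE and 51.0% to 61.1% in HL_WT, which did not overlap. HL_KO lay between them at 41.1% to 51.2%, just above HL_OE and overlapping with HL_WT at its lower end only. At normal light the share reached 46.9% in NL_OE and lay at 38.6% to 53.5% in NL_WT and 38.1% to 53.6% in NL_KO, which overlapped. An HL_OE share rests on 23 to 42 counts, and its 95% Wilson intervals reached from 12.5% to 55.5%. No test was made of this share.

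**Figure D2:**
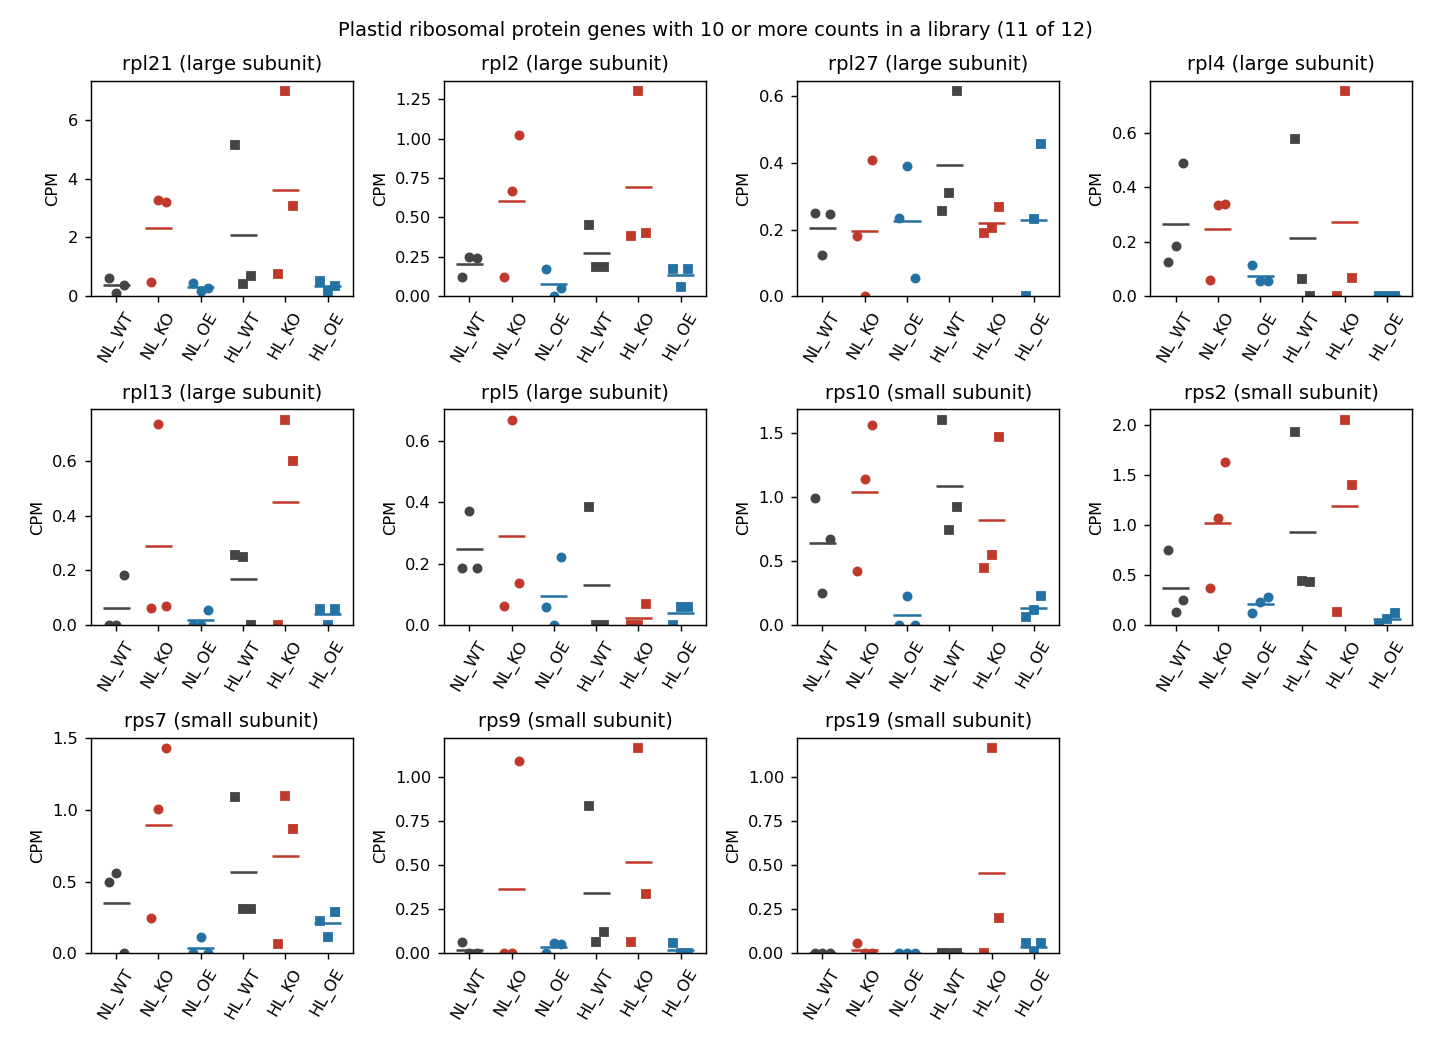
Level in CPM (vertical axis, a scale for each panel) of 11 of the 12 genes with 10 or more counts in a library, in 18 libraries; points are libraries (circles normal light, squares high light) and lines group means. HL_KO replicate 2 is the highest library for rpl21 at 6.98 CPM, while rpl27 lies at 0.615 CPM or lower in all libraries.

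Single genes were tested with edgeR's quasi-likelihood test on all 9912 genes that passed a filter on low counts, and a gene was called at a Benjamini-Hochberg adjusted p below 0.05 over all of them. Of the 43 genes 6 passed the filter, rpl2, rpl21, rps2, rps7, rps9 and rps10. The filter admits a gene through the groups in which it is high, so these 6 do not stand for the 43. None of the 6 exceeded 0.513 CPM in an OE library, and they passed through WT and KO libraries. Counts of them called lower in OE are therefore partly set by the filter. The contrasts of OE with WT and of OE with KO share the OE libraries.

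The small subunit gene rps10 separated OE from WT most clearly. In bacteria its protein sits in the head of the small subunit and also acts in transcription antitermination as NusE. rps10 had 16, 4 and 11 counts in NL_WT and 0, 4 and 0 in NL_OE, and 25, 12 and 15 in HL_WT against 1, 2 and 4 in HL_OE. At high light every OE library was under every WT library, and at normal light the highest OE library matched the lowest WT library in counts and lay just under it in CPM (0.223 against 0.248). Its mean was 0.639 ± 0.375 CPM in NL_WT and 0.0744 ± 0.129 in NL_OE, and 1.09 ± 0.455 in HL_WT and 0.134 ± 0.0871 in HL_OE (SD, n = 3). By edgeR it was lower in OE at normal light, with a log2 fold change of -3.06 (SE 1.17, adjusted p = 0.0389), and at high light, again of -3.06 (SE 0.97, adjusted p = 0.0155). Over both light levels edgeR gave an average of -3.06 on the log2 scale with an SE of 0.76 (adjusted p = 0.00196), and this call held in all 26 alternatives, with adjusted p from 5.99e-05 to 0.00699. With replicate number as a blocking factor the normal light call was lost (adjusted p = 0.0599, edgeR), as it was without HL_OE replicate 2, NL_OE replicate 1 or 3, or NL_WT replicate 1 or 3, and the range over its alternatives was 0.00233 to 0.161. Leaving out HL_WT replicate 1, or either of HL_OE replicates 1 and 2, ended the high light call.

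rps2 was the other gene called between OE and WT. Its protein joins the bacterial small subunit late and helps to attach the protein that draws in mRNA. It had 12, 2 and 4 counts in NL_WT and 2, 4 and 5 in NL_OE, which overlapped, and 30, 7 and 7 in HL_WT against 0, 1 and 2 in HL_OE, which did not. By edgeR it was lower in OE at high light, by a log2 fold change of -3.98 (SE 1.54, adjusted p = 0.0211), and on average over both light levels (-2.46, SE 0.96, adjusted p = 0.0279). At normal light the value was -0.93 and was not called (adjusted p = 0.589, edgeR). Without HL_WT replicate 1 the high light value was -2.77 and was not called (adjusted p = 0.131, edgeR), and the call was also lost without HL_OE replicate 1 or 2. The averaged call was lost without that library (-1.85, adjusted p = 0.0877, edgeR), and also without NL_WT replicate 1, NL_OE replicate 1 or HL_OE replicate 1 or 2; over its alternatives the adjusted p ran from 0.00676 to 0.124. So 1 of 6 tested genes was lower in OE at normal light, where 10.9% of all tested genes were called lower, and 2 of 6 at high light, where 15.1% were. On average over both light levels it was 2 of 6 with 19.7% of all tested genes called lower.

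edgeR called none of the 4 other tested genes between OE and WT. rps7, whose protein starts the assembly of the head of the bacterial small subunit, had 8, 9 and 0 counts in NL_WT against 0, 2 and 0 in NL_OE, and 17, 5 and 5 in HL_WT against 4, 2 and 5 in HL_OE, with overlap at normal light and a tie in counts at high light, where the groups did not overlap in CPM (0.307 or more in HL_WT and 0.285 or less in HL_OE; average of -2.30 on the log2 scale, SE 1.09, adjusted p = 0.0538, edgeR). DESeq2 called it on average (adjusted p = 0.0261), and over its alternatives the adjusted p ran from 0.022 to 0.141. rpl21 had 10, 2 and 6 counts in NL_WT against 8, 3 and 5 in NL_OE, and 80, 7 and 11 in HL_WT against 9, 3 and 6 in HL_OE. These overlapped, and its log2 fold changes were -0.38 (adjusted p = 0.859, edgeR) and -2.75 (adjusted p = 0.0609, edgeR). DESeq2 called it at high light (adjusted p = 0.0192), and without HL_WT replicate 1 the edgeR value was -0.70 (adjusted p = 0.661), the highest of the range from 0.0192 over its alternatives. edgeR called it there without HL_KO replicate 1 or 2, HL_WT replicate 2 or 3, or NL_KO replicate 1. rpl2, whose protein lies at the peptidyl transferase centre, had average log2 fold changes of -1.25 (adjusted p = 0.176, edgeR), and rps9, whose protein touches the tRNA in the peptidyl site, of -1.59 (adjusted p = 0.572, edgeR).

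**Figure D3:**
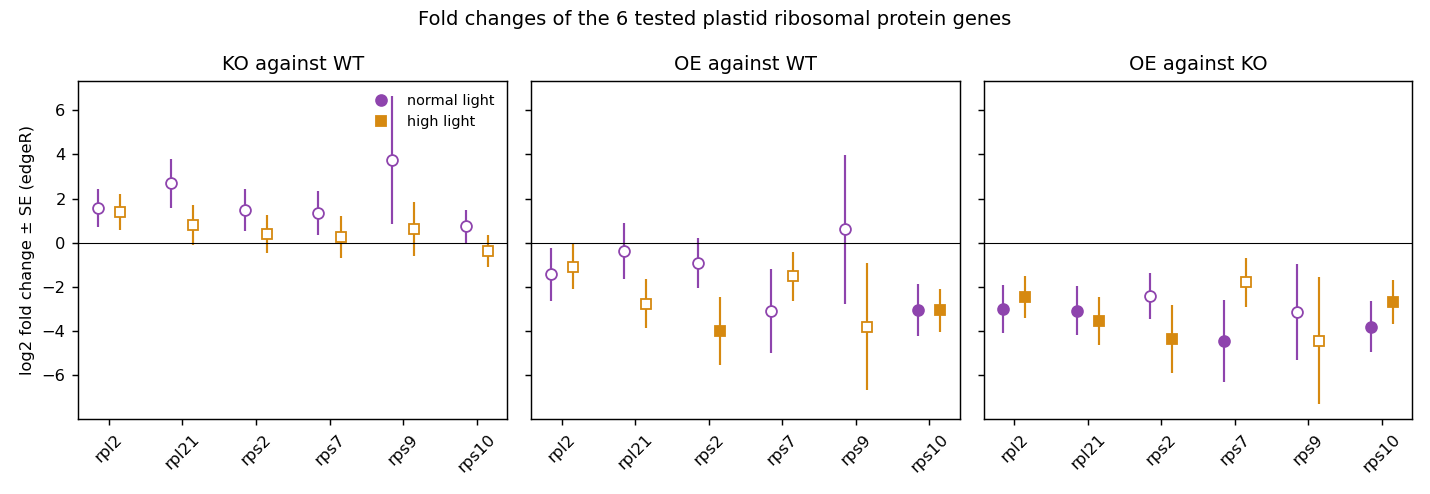
Log2 fold changes (vertical axis, bars ± SE, edgeR) of the 6 tested genes for 3 strain contrasts at normal light (circles) and high light (squares); filled symbols were called at an adjusted p below 0.05. All 12 values of OE against KO lie below 0, from -1.80 to -4.44, and 8 of them are filled. Of all tested genes 17.4% were called lower there at normal light and 19.2% at high light. The filter admitted the 6 genes through WT and KO libraries, so their direction is partly set by it.

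The OE-labelled and KO-labelled strains differed in more of the tested genes. Averaged over both light levels all 6 tested genes were lower in OE, where 28.2% of all tested genes were called lower. The filter had admitted these 6 through WT and KO libraries, so this count is partly set by it. The log2 fold changes were -3.24 for rps10 (SE 0.76, adjusted p = 0.000822, edgeR), -3.30 for rpl21 (SE 0.78, adjusted p = 0.00201), -3.38 for rps2 (SE 0.93, adjusted p = 0.00206), -2.73 for rpl2 (SE 0.72, adjusted p = 0.00221), -3.12 for rps7 (SE 1.07, adjusted p = 0.00642) and -3.78 for rps9 (SE 1.80, adjusted p = 0.0177). The first 5 calls held in every alternative in which the genes were tested. That of rps9 was lost without NL_KO replicate 3 (-0.95, adjusted p = 0.896, edgeR) and without HL_KO replicate 2 (-3.06, adjusted p = 0.0705, edgeR), as well as with limma on log2(TPM + 1) (adjusted p = 0.067) and with limma on log2(TPM + 0.1) (adjusted p = 0.0956). rps9 had 0, 0 and 16 counts in NL_KO and 1, 17 and 5 in HL_KO, so those libraries carried most of it, while the OE libraries had at most 1.

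At single light levels 4 of the 6 were lower in OE than in KO, with 17.4% of all tested genes called lower at normal light and 19.2% at high light. At normal light these were rpl2 (log2 fold change -3.00), rpl21 (-3.06), rps7 (-4.44) and rps10 (-3.80), and at high light rpl2 (-2.45), rpl21 (-3.53), rps2 (-4.36) and rps10 (-2.68). rpl21 had 8, 49 and 47 counts in NL_KO and 12, 102 and 46 in HL_KO, so that replicate 1 of each KO group was near the OE level of 3 to 9 counts. rps10 had 7, 17 and 23 counts in NL_KO and 7, 8 and 22 in HL_KO, all above the OE libraries in the same light. rps2 had 6, 16 and 24 counts in NL_KO and 2, 30 and 21 in HL_KO, and rps7 4, 15 and 21 and 1, 16 and 13. rpl2 had 2, 10 and 15 counts in NL_KO and 6, 19 and 6 in HL_KO against 3, 0 and 1 in NL_OE and 3, 1 and 3 in HL_OE. With 1 library left out the number called ran from 1 to 5 at each light level. It was 1 without NL_KO replicate 2 or 3 or NL_OE replicate 3 at normal light, and 1 without HL_KO replicate 2 or HL_OE replicate 2 at high light.

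None of these genes was called between KO and WT. edgeR called 0 of 6 at normal light (1 at an unadjusted p under 0.05; 0.131% of all tested genes called), 0 of 6 at high light (0 unadjusted; 3.63% called) and 0 of 6 on average (2 unadjusted; 0.353% called), and DESeq2 and limma called 0 in each. The averaged log2 fold changes were 1.73 for rpl21 (SE 0.71, adjusted p = 0.261, edgeR), 1.48 for rpl2 (SE 0.59, adjusted p = 0.248) and 0.18 for rps10 (SE 0.52, adjusted p = 0.857). Without HL_WT replicate 1 that of rpl21 was 2.73 and was called (adjusted p = 0.0413, edgeR), the lowest of a range up to 0.568 over its alternatives. The KO replicates were spread widely, and the standard error of rpl21 at normal light was 1.09 on the log2 scale.

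Light was not followed by a called change in any strain. High against normal light gave 0 of 6 calls in WT, KO and OE by edgeR, DESeq2 and limma (DESeq2 gave an adjusted p for 1 of the 6 in KO), and unadjusted p under 0.05 in 1, 0 and 0 genes, where 13.3%, 2.85% and 0.333% of all tested genes were called. The 1 gene was rpl21 in WT (2.51 on the log2 scale, SE 1.10, adjusted p = 0.132, edgeR), and 80 of its 98 counts in HL_WT came from replicate 1. Without that library its value was 0.45 (adjusted p = 0.854, edgeR). The light response of KO and that of OE differed from that of WT in 0 of 6 genes each by all 3 tools, where edgeR had 0 below an unadjusted 0.05 and called 0.605% and 3.70% of all tested genes.

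The other genes that reached 10 counts failed the filter and have values only. rpl27, whose protein reaches into the peptidyl transferase centre, had 10, 9, 12, 19, 10 and 12 counts summed over NL_WT, NL_KO, NL_OE, HL_WT, HL_KO and HL_OE. Its neighbour in the gene order, rpl21, had 18, 104, 16, 98, 160 and 18 in the same groups. rpl4, whose protein lines the tunnel through which the new peptide leaves, had 13, 11 and 4 counts in NL_WT, NL_KO and NL_OE, and 10, 12 and 0 at high light. rpl13, an early binding protein of the large subunit, had 3, 13 and 1 counts at normal light and 8, 20 and 2 at high light in the same order of strains. rpl5, which binds the small RNA of the large subunit, had 12, 13 and 5, and 6, 1 and 2. rps19, a protein of the small subunit head, had 20 of its 23 counts in HL_KO, and 17 of them came from replicate 2 alone.

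The threshold of 10 counts cuts through a continuous range. Just inside it, rpl5 and rpl27 reached 10 counts in their highest library. Just outside it, rps13 reached 9 and rps20 reached 8. rps20 had 7, 12, 7 and 11 counts in NL_WT, NL_KO, HL_WT and HL_KO and 0 in both OE groups. Of rps4, whose protein starts the assembly of the bacterial small subunit, 22 counts lay in WT and KO libraries and 0 in OE. Both were picked out after their values were seen. Without the filter on low counts 39 of the 43 genes could be tested, and 13 were lower in OE than in KO on average over both light levels, where 27% of all tested genes were called lower. Beside the 6 above they included rpl13, rpl4, rps13, rps20 and rps4. rpl27 was not among them (log2 fold change 0.0052).

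**Figure D4:**
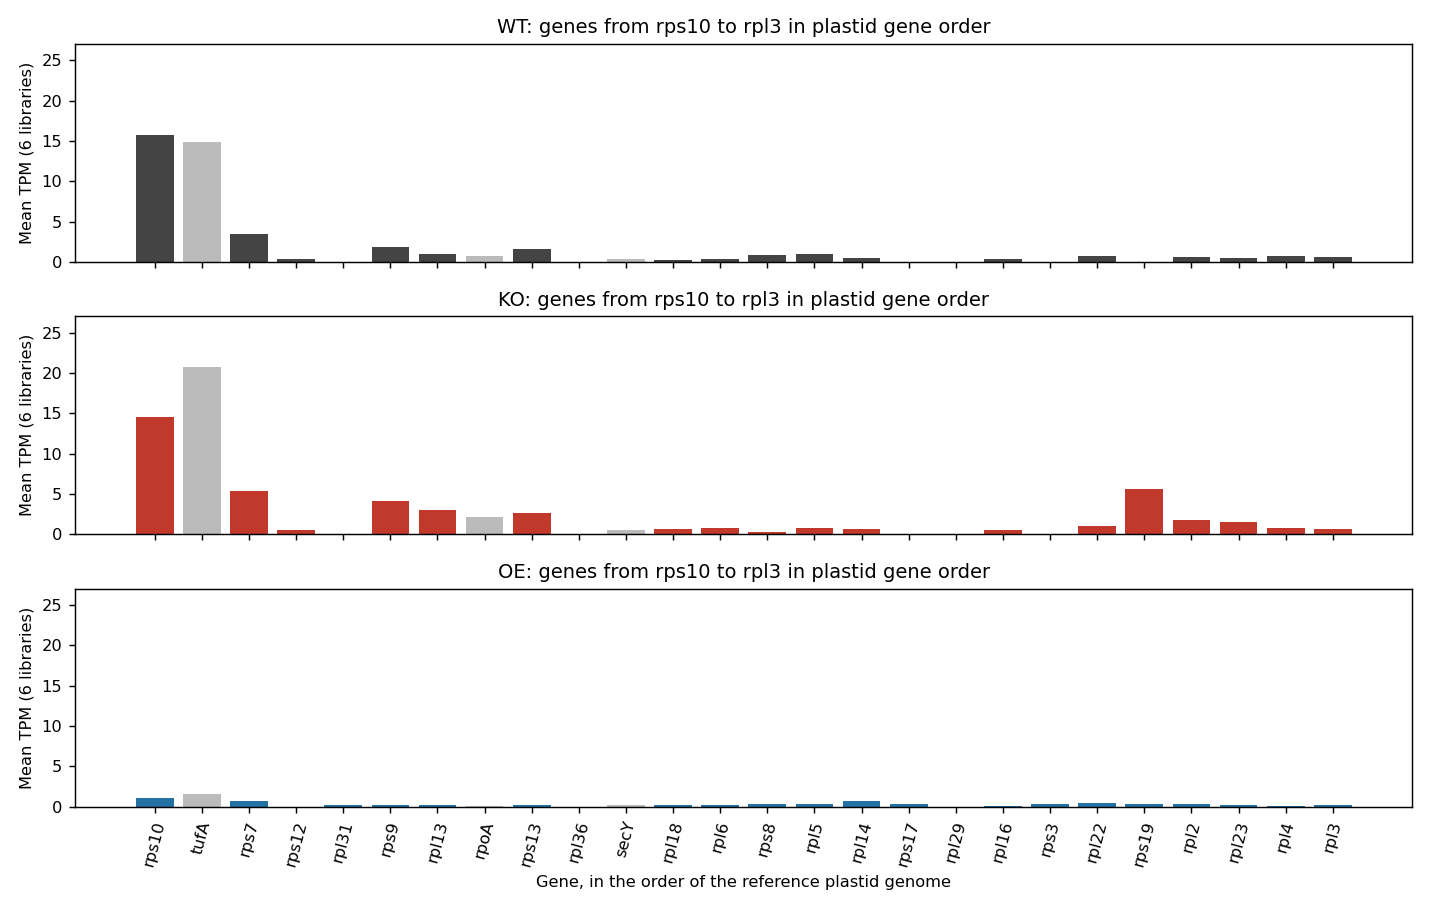
Mean TPM (vertical axis) over the 6 libraries of each strain for 26 of the 28 genes from rps10 to rpl3, in the order of the reference plastid genome (horizontal axis); coloured bars are ribosomal protein genes and grey bars tufA, rpoA and secY. rps10 and tufA stand highest in WT and KO, and in OE all bars shown stay under 3 TPM.

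The position of the genes was not used to choose them. In the gene order of a RefSeq assembly of strain IMET1 (ASM5162214v2), in which all 43 symbols matched, 25 of the 43 genes lie in a stretch of 28 neighbouring genes that starts at rps10 and ends at rpl3, between petF and dnaK. The 3 others in the stretch are tufA, rpoA and secY. The 25 genes received 888 counts and the 18 genes elsewhere 807, or 393 without rpl21. Counts were uneven along the stretch. On the TPM scale rps10 at its start averaged 10.4 TPM and tufA, the next gene, 12.4 TPM, rps7 after it 3.17 TPM and rps12 after that 0.321 TPM, while rpl29 and rpl36 within it had no counts. rpl21 and rps2, which were among the tested genes, lie outside the stretch, rpl21 between rpl27 and ycf54 and rps2 between atpI and rpoC2. Reads from overlapping or joined transcripts of such neighbours cannot be assigned to a strand here, as the sources used here do not state whether counting used strand.

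Other genes of plastid gene expression were called lower in OE as well. tufA, the plastid elongation factor that brings aminoacyl-tRNA to the ribosome, is the 1 translation factor of the list in the table. It was 6.79 ± 1.71 CPM in NL_WT and 1.45 ± 0.402 in NL_OE, and 11.4 ± 7.41 in HL_WT and 0.534 ± 0.199 in HL_OE (SD, n = 3), and averaged over light it was lower in OE than in WT by edgeR (-3.43 on the log2 scale, SE 0.47, adjusted p = 5.14e-05). Of the 4 plastid RNA polymerase genes 2 were tested, and 1, rpoA, was lower in OE than in WT on average (-3.42, SE 1.24, adjusted p = 0.00526, edgeR). Of the 10 genes for plastid protein quality and transport 6 were tested and 4 were lower, against 19.7% of all tested genes called lower; 1 of the 4 was secA of the protein translocase (-4.32, SE 1.25, adjusted p = 0.00061, edgeR). Ribosomal protein genes of the mitochondrion, 16 in the table and 5 tested, had 2 lower in OE than in WT and 5 lower in OE than in KO on average, beside 28.2% of all tested genes in the latter contrast. KO against WT gave 0 calls in all 4 lists at each light level and on average by edgeR, with 1 to 4 of their 14 tested genes at an unadjusted p under 0.05. In OE libraries rpoA reached at most 0.117 CPM and secA at most 0.275 CPM, so they passed the filter through WT and KO libraries. Counts of genes in these lists called lower in OE can therefore be partly set by the filter. These lists were chosen with earlier results known and their contrasts share the same libraries, so they are set side by side only.

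**Figure D5:**
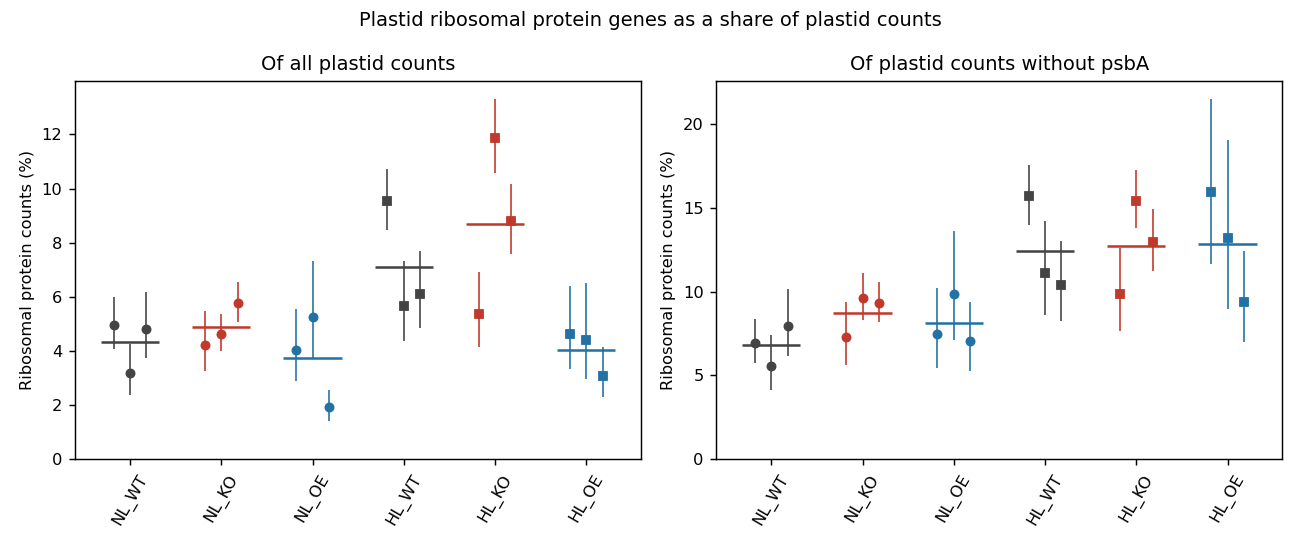
Counts of the 43 genes as a percent of all plastid counts (left) and of plastid counts without psbA (right) in each of 18 libraries; points are libraries (circles normal light, squares high light), bars 95% Wilson intervals and lines group means. In the right panel normal light libraries lie at 5.56% to 9.88% and high light libraries at 9.38% to 16.0%.

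The share of the 43 genes within the plastid counts separated the strains less than their level in the library. Of all plastid counts NL_WT gave them 3.19% to 4.95%, NL_KO 4.23% to 5.77% and NL_OE 1.92% to 5.25%. At high light HL_WT gave them 5.67% to 9.53%, HL_KO 5.37% to 11.9% and HL_OE 3.08% to 4.63%, so that HL_OE lay under the others. psbA, the gene of a photosystem core protein, took 66.7% to 71.0% of the plastid counts in HL_OE but 39.2% to 48.8% in HL_WT and 22.9% to 45.5% in HL_KO. With psbA left out, a choice made after seeing the data, the share was 12.4% ± 2.86 in HL_WT, 12.7% ± 2.79 in HL_KO and 12.9% ± 3.31 in HL_OE, and 6.81% ± 1.19 in NL_WT, 8.73% ± 1.27 in NL_KO and 8.13% ± 1.53 in NL_OE (SD, n = 3). The strains then overlapped at each light level. The plastid genes other than psbA and the 43 were themselves lower in OE, at 24.3 ± 7.52 CPM against 56.3 ± 23.4 in WT at normal light and 14.0 ± 7.95 against 49.3 ± 32.1 at high light.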

How the data were processed

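Expected counts and TPM per gene and library were deposited by the authors. The expected counts are estimated reads per gene, not normalized; 96.3% or more of the values of each library were whole, all those of the 43 genes among them, and the rest were rounded before testing. TPM values were scaled by the authors for gene length and library total, and log2 of them (with 1 or 0.1 added) was used in alternatives only. Tools named in the submitters' processing notes are STAR, Salmon, Trim Galore and Picard, while their versions, the strand setting, the build and the gene models were not given in the sources used. CPM is the count scaled to a common library total.

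The test was run in R 4.3.3 with edgeR 4.0.16 (TMM scaling, filterByExpr, robust quasi-likelihood fit of all 6 groups together, no covariate), with 14 contrasts and Benjamini-Hochberg adjustment over 9912 genes. Standard errors are Wald errors of the fit. The alternatives were DESeq2 1.42.0, limma 3.58.1 on log2 TPM (which changes the tool and the unit together), RLE as the scaling, the low-count filter dropped or raised to 5 CPM in 3 libraries, a block for replicate number, only the compared groups fitted, 1 library omitted, and HL_KO replicate 2 and HL_WT replicate 1 omitted together (added after seeing the data). The method was checked on simulated data. Its changed genes had higher mean counts than most of the tested ribosomal protein genes, and all genes were given the same spread. The check therefore does not cover calls at counts this low. Sums and shares carry no test; intervals and floors of 3 counts reflect counting error only, because reads lacking molecular identifiers may be copies of 1 molecule. The 43 genes, the lists, the threshold of 10 counts in a library that decided which genes are described singly and the contrasts were chosen with earlier results of these data known. The replicates were compared in pairs within each group, and no 2 libraries of the same group agreed within sampling noise (lowest chi-square per gene 5.87). Sequences of the genes were not used here, and single values of some genes are not reported here.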

Additional observations from a re-analysis of the deposited data

How the results depend on the processing

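Low counts, a wide spread of the KO libraries and 3 libraries per group limit these results. The 6 tested genes had group means of at most 3.60 CPM, so fold changes against OE groups rest on a few counts. No member passed the filter at 5 CPM in 3 libraries, so that alternative gave no values. For OE against WT, the 1 call at normal light became 0 with the replicate block and ranged from 0 to 1 with 1 library left out. The 2 calls at high light became 1 without both HL_KO replicate 2 and HL_WT replicate 1, a choice made after seeing the data, and ranged from 0 to 3 with 1 library left out. The 2 calls on average became 1 with limma on log2(TPM + 1) and 1 without both of those libraries, and ranged from 1 to 3. For OE against KO, calls with 1 library left out ranged from 1 to 5 at normal light, from 1 to 5 at high light and from 5 to 6 on average, where no filter on low counts gave 13. KO against WT on average ranged from 0 to 1. Calls for light and for differences of light response stayed at 0 in every alternative run. Replicate numbers did not pair the libraries: 14 of 45 same-numbered pairs correlated above 0.1 in their deviations from group means (-0.70 to 0.51), and 7 of 18 libraries lay closest on average to their own number. The block also ended the calls of rpl2 at high light (adjusted p = 0.0593, edgeR) and rpl21 at normal light (adjusted p = 0.0506, edgeR) for OE against KO. No single gene that was called reversed its direction.

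The log2 ratio of summed CPM for OE against WT at normal light was -0.998, with -1.23 to -0.58 over single libraries left out. With summed TPM it was -1.48, and the cause of this difference was not tested. At high light it was -2.05, and -0.97 without both doubted libraries, with -2.41 to -0.97 over single libraries left out. High against normal light in WT gave 0.92, -0.16 without both, and -0.16 to 1.34 over single libraries left out. Leaving psbA out of the plastid total moved the log2 ratio of shares from -0.81 to 0.0529 for OE against WT and from -1.10 to 0.013 for OE against KO at high light, as psbA held most plastid counts of HL_OE. The 85 other alternatives for sums kept within the replicate spread.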

Other observations

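A difference between the light levels was seen in the plastid counts once psbA was set aside, a choice made after seeing the data. The 43 ribosomal protein genes made up 5.56% to 9.88% of the remaining plastid counts in the 9 normal light libraries (median 7.46%) and 9.38% to 16.0% in the 9 high light libraries (median 13.0%). The mean was higher at high light in WT, KO and OE. Without rpl21 as well, the shares were 5.32% to 9.03% and 7.86% to 12.3%, with medians of 6.30% and 9.79%. From normal to high light the mean summed CPM went from 4.13 to 7.80 in WT and from 9.84 to 10.7 in KO, but from 2.07 to 1.89 in OE. The order in WT turned without HL_WT replicate 1. The plastid genes other than psbA and the 43 went from 56.3 to 49.3 CPM in WT, 97.8 to 67.2 in KO and 24.3 to 14.0 in OE. These are values over genes chosen with results known, without a test.

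rpl21 and rpl27 are neighbours in the plastid genome, and rpl21 had 2 to 102 counts per library while rpl27 had 0 to 10. In HL_KO replicate 2 rpl21 had 102 counts and rpl27 had 3. Their difference in response was not tested.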
